A study of Mus musculus with 6 samples.

Results

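The let-7 family with its relative miR-98 was followed in small RNAs bound to the RNA-induced silencing complex (RISC) of the mouse brain. The members were chosen by name: every read sequence that the deposited table labels with 1 of 9 miRNAs (mmu-let-7a-5p, mmu-let-7b-5p, mmu-let-7c-5p, mmu-let-7d-5p, mmu-let-7e-5p, mmu-let-7f-5p, mmu-let-7g-5p, mmu-let-7i-5p and mmu-miR-98-5p) was taken, which gave 9 of 1101 miRNA labels and 3860 of 143934 read sequences. The libraries came from cortex and hippocampus combined of male BL6 mice (C57BL/6J in the study's methods), 3 libraries at 2 months of age (2M) and 3 at 18 months (18M). Both ages shared strain and tissue, and no genotype or treatment set them apart. In Ago-RP-Seq, a peptide from GW182, the partner of Argonaute in RISC, is used to capture the 4 Argonaute proteins, and the small RNAs they hold (R-sRNAs) are sequenced. Levels are given in RPM, reads scaled to the same total in every library, so a level is a share of the R-sRNAs of that library and not an amount per cell. In bulk tissue, fewer cells of a type and less RNA per cell cannot be told apart.

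The let-7 miRNAs were first found in the nematode, where let-7 times the passage from larva to adult, and the family is among the most conserved of all animal miRNAs. In mammals its members rise as cells leave the stem or progenitor state, the RNA-binding protein Lin28 blocks the maturation of their precursors, and they repress growth and cell cycle genes such as Lin28a, Hmga2, Myc and Ras genes. They are abundant in the adult brain. A miRNA finds its targets mainly through its seed, the bases that follow the first base of the 5′ end, and miRNAs with the same seed can bind many of the same targets.

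The 9 mature sequences are shown because the members differ at so few bases that the make-up of the family rests on single letters. They were taken from RefSeq (GRCm38.p6), which matched all 9, and the seed (bases 2 to 8) is in capitals.
let-7a-5p: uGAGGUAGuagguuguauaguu
let-7b-5p: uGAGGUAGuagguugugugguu
let-7c-5p: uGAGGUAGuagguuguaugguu
let-7d-5p: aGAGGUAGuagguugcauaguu
let-7e-5p: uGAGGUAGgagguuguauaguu
let-7f-5p: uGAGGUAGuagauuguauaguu
let-7g-5p: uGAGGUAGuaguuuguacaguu
let-7i-5p: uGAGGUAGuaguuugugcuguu
miR-98-5p: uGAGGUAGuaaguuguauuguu
All 9 had the seed GAGGUAG and a length of 22 nt. With positions counted from 1 at the 5′ end and let-7a-5p as the reference, let-7c-5p differed by A19G, let-7e-5p by U9G and let-7f-5p by G12A. The change in let-7b-5p was A17G and A19G, in let-7d-5p U1A and U16C, in let-7g-5p G12U and U18C, and in miR-98-5p G11A and A19U. The most distant from let-7a-5p was let-7i-5p, with G12U, A17G, U18C and A19U. Any pair of members differed at 1 to 6 bases, with a median of 3.

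The members come from 12 hairpin genes, since let-7a, let-7c and let-7f each have 2. On chromosome 13, Mirlet7a-1 (chr13:48538179-48538272), Mirlet7f-1 (chr13:48537829-48537917) and Mirlet7d (chr13:48536012-48536114) lie on the minus strand within 2064 bases of each other and overlap an exon of the lincRNA 6720427I07Rik. Mirlet7b (chr15:85707319-85707403) and Mirlet7c-2 (chr15:85706603-85706697) lie 621 bases apart on the plus strand and overlap an exon of Lncppara. Mirlet7f-2 (chrX:151912346-151912428) and Mir98 (chrX:151913214-151913321) lie 785 bases apart in introns of Huwe1, on its strand. Mirlet7g (chr9:106178840-106178927, plus) lies in an intron of Wdr82, Mirlet7e (chr17:17830352-17830444, plus) in an intron of Spaca6 and Mirlet7c-1 (chr16:77599657-77599750, plus) in an intron of Mir99ahg. Mirlet7a-2 (chr9:41536716-41536811, plus) lies in introns of the noncoding genes 3110039I08Rik and Gm49317, and Mirlet7i (chr10:122985640-122985724, minus) overlaps an exon of the transcribed pseudogene D630033A02Rik. Positions are those of GRCm38.p6, with host genes from GENCODE M21. Reads of a mature sequence that 2 hairpins share cannot be assigned to either hairpin.

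The libraries held 19272046 to 25080484 reads, and the ages overlapped in depth. A count of 3 reads was worth 0.120 to 0.156 RPM, which covers counting error only, since no molecular identifiers were used. Replicates are separate samples by their labels, so p-values measure the spread between these 3 samples of each age. The 4 marker miRNAs of neurons summed to 169763 to 218255 RPM and overlapped between the ages. The 4 markers of microglia and immune cells summed to 3398 to 3821 RPM at 2M and to 2453 to 2992 RPM at 18M, without overlap. The sums for oligodendrocytes, erythrocytes, vessels, choroid plexus and muscle overlapped. Every list except that of oligodendrocytes had the lower mean at 18M. Among single miRNA labels tested, 24.9% did not overlap between the ages. No marker on the 7 lists was at 0 in any library.

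The family held 107164, 114189 and 96671 RPM in 2M replicates 1, 2 and 3 and 101053, 119970 and 117300 RPM in 18M replicates 1, 2 and 3. This was 10.9% of all reads and 11.4% of the miRNA reads, as means of the 6 libraries. The 2M mean was 106008 ± 8816 RPM and the 18M mean 112774 ± 10238 RPM (SD, n = 3 each). The lowest library was 2M replicate 3, the next 18M replicate 1, and the groups overlapped. The difference of the means was 6766 RPM, and it ranged from 2098 RPM without 2M replicate 3 to 12627 RPM without 18M replicate 1.

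let-7c-5p was the most abundant member in all 6 libraries, at 24266, 27954 and 24700 RPM at 2M and 22814, 30776 and 27597 RPM at 18M. It ranked 7 among all miRNA labels by mean RPM. let-7b-5p stood at 16958, 16594 and 16141 RPM at 2M and 16655, 21903 and 19279 RPM at 18M. let-7a-5p, the member whose sequence is that of the founding let-7, stood at 17721, 19100 and 15355 RPM at 2M and 16675, 19237 and 19308 RPM at 18M. The order of let-7b-5p and let-7a-5p changed between libraries, with let-7b-5p higher in 2 of 6. let-7f-5p was at 16065, 17058 and 13700 RPM at 2M and 15147, 16460 and 16022 RPM at 18M, below let-7a-5p in every library, although their ranges overlapped. let-7c, a, b and f together held 70.0% to 73.7% of the family.

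let-7g-5p was at 10643, 11697 and 8687 RPM at 2M and at 10847, 9932 and 12945 RPM at 18M. let-7d-5p, the only member that starts with A, was at 7865, 8678 and 6625 RPM at 2M and at 7272, 8958 and 8536 RPM at 18M. let-7i-5p was at 7963, 7534 and 6691 RPM at 2M and at 6726, 6755 and 8148 RPM at 18M. let-7g-5p exceeded let-7d-5p in 6 of 6 libraries, whereas let-7d-5p exceeded let-7i-5p in only 4, so the last 2 did not separate. let-7e-5p was at 5024, 4880 and 4234 RPM at 2M and at 4406, 5418 and 4875 RPM at 18M. miR-98-5p was by far the rarest, at 659, 693 and 538 RPM at 2M and 511, 532 and 589 RPM at 18M, and let-7e-5p exceeded it 7.04-fold to 10.2-fold. Neighbours in the order whose ranges over the 6 libraries did not overlap were let-7c and let-7b, let-7f and let-7g, let-7i and let-7e, and let-7e and miR-98. By mean RPM the members other than let-7c-5p ranked from 12 (let-7b-5p) to 140 (miR-98-5p) among all labels.

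**Figure D1:**
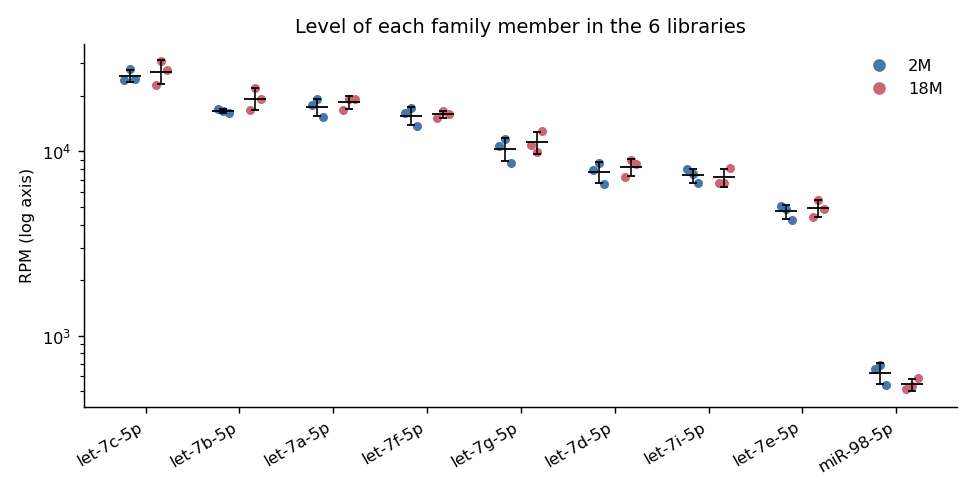
RPM on a log axis for the 9 members in the 6 libraries, 2M in blue and 18M in red, with the mean and SD of each age as bars. Every member's ages overlap, and miR-98-5p (511 to 693 RPM) lies far below let-7e-5p (4234 to 5418 RPM).

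Does the family in the RISC change with age? None of the 9 members had an adjusted p under 0.05 for 18M against 2M with limma on log2(RPM + 1), and the same count of 0 was obtained with the edgeR quasi-likelihood test and with DESeq2 on the recovered reads. At an unadjusted p under 0.05 the limma count was also 0 of 9. Of all 474 labels tested, limma called 23, or 4.85%, and 17.9% had an unadjusted p under 0.05. The ages overlapped for all 9 members, while 24.9% of the labels tested did not overlap.

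Of the 9 members, 7 had a positive log2 fold change and 2 a negative one, while 38.8% of all labels had the higher mean at 18M. The largest was that of let-7b-5p, at 0.21 (SE 0.13, 95% interval −0.09 to 0.51, limma adjusted p = 0.421). let-7g-5p followed with 0.12 (SE 0.16, limma adjusted p = 0.732), then let-7d-5p with 0.10, let-7a-5p with 0.08, let-7c-5p with 0.07, let-7e-5p with 0.06 and let-7f-5p with 0.03. The 2 negative values were those of let-7i-5p, −0.04 (SE 0.13, limma adjusted p = 0.902), and miR-98-5p, −0.21 (SE 0.14, 95% interval −0.55 to 0.14, limma adjusted p = 0.465). The median over the members was 0.07 and over all labels −0.07. All 9 intervals included 0, so at 3 libraries per age a rise of up to 0.51 or a fall of up to 0.55 on the log2 scale would be within them.

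The study works with 6mer seeds, read positions 2 to 7, because each possible 6mer has a measured viability of cells transfected with an siRNA that carries it. The family's 6mer, GAGGUA, was the most abundant of the 4032 seeds found, at 95966 to 119326 RPM, and 97.4% to 97.6% of the members' reads carried it. Its deposited viability was 50.3 percent, against a median of 63.9 percent over the seeds of the table, and 1247 seeds had a lower one. With GAGGUA at 106335, 113340 and 95966 RPM at 2M and 100401, 119326 and 116715 RPM at 18M, the ages overlapped. Its log2 fold change was 0.09 (SE 0.11, 95% interval −0.18 to 0.36, limma adjusted p = 0.756), and 0.905% of the 1105 seeds tested were called. The labels let-7j and let-7k share the seed, and they stood at 4.88 to 6.99 RPM and 8.93 to 11.4 RPM. miR-202-3p, a further label with it, was below the floor of 3 reads in each library.

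The make-up of the family does not depend on how a library is scaled. let-7c-5p held 24.1% of the family's reads on average over the 6 libraries, let-7a-5p and let-7b-5p 16.4% each, let-7f-5p 14.4%, let-7g-5p 9.87%, let-7d-5p 7.29%, let-7i-5p 6.70%, let-7e-5p 4.40% and miR-98-5p 0.538%. The share of let-7b-5p was 15.8%, 14.5% and 16.7% at 2M and 16.5%, 18.3% and 16.4% at 18M. That of let-7i-5p was 7.43%, 6.60% and 6.92% at 2M and 6.66%, 5.63% and 6.95% at 18M. Both overlapped between the ages, and so did the shares of let-7a, c, d, e, f and g.

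Only miR-98-5p held a share that did not overlap between the ages. It made up 0.615%, 0.607% and 0.557% of the family at 2M and 0.505%, 0.443% and 0.502% at 18M, a mean of 0.593% ± 0.032 against 0.483% ± 0.035 (SD, n = 3 each). The log2 ratio of miR-98-5p to all other labels with the same main seed differed by −0.30 (SE 0.08, 95% interval −0.50 to −0.09), with an unadjusted p of 0.014 and an adjusted p of 0.155 by limma over all 188 labels that share a seed family. It lay between −0.34 and −0.24 when each library was left out in turn. This comparison called 4.26% of labels, 19.1% had an unadjusted p under 0.05 and 27.1% did not overlap, so 1 of 9 members is below that background. let-7f-5p, which shares the Huwe1 locus through its second hairpin, had a difference of −0.07 (SE 0.06). Most marker sums, those of microglia and immune cells among them, also had lower means at 18M, and their part in the share of miR-98-5p was not tested.

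**Figure D2:**
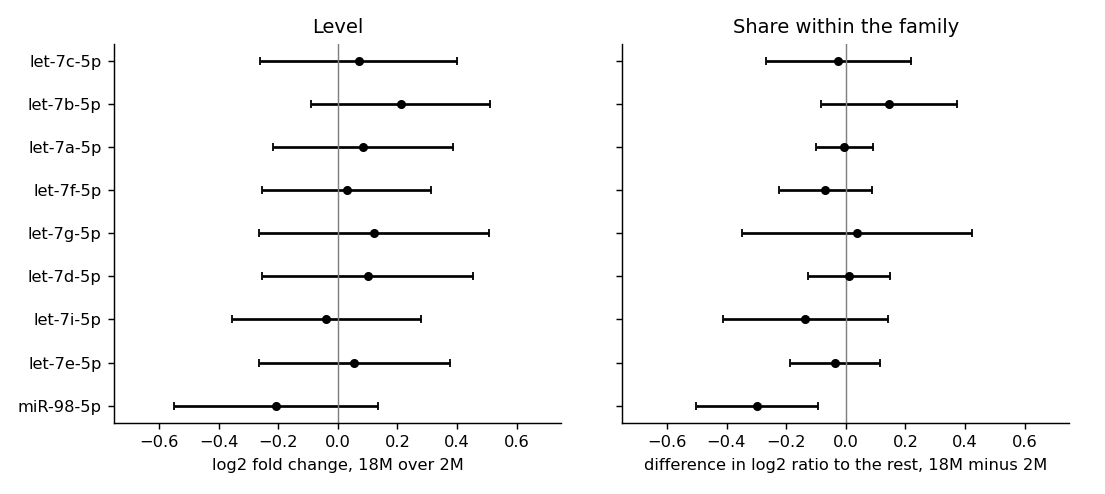
Difference between the ages for each member with its 95% interval from limma, as the log2 fold change of the level (left) and as the difference in the log2 ratio to the other labels of the seed (right). All intervals of the levels include 0, and on the right only that of miR-98-5p (−0.50 to −0.09) does not.

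The members differed among themselves in their 3′ ends. Their reads were compared with the mature sequence and the hairpins, and a read was called tailed when at least 18 templated bases from the mature start were followed by 1 to 3 A or T bases that no hairpin of the member holds. let-7i-5p had the most by this definition, with 32.4%, 31.1% and 32.5% of its reads tailed at 2M and 32.2%, 33.3% and 35.8% at 18M. It ranked 12 of the 228 labels with at least 100 RPM and a hairpin, whose median was 7.38%. let-7b-5p (14.3%) and let-7e-5p (13.8%) were also above that median, let-7c-5p (7.82%) was close to it, and the other 5 members ranged from 4.19% (let-7f-5p) to 6.87% (miR-98-5p). The lowest library of let-7i-5p was above the highest of every other member.

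A single untemplated A ended 16.7% of let-7i-5p reads, the second highest value of the 228 labels, against 3.70% to 6.69% in the other members and a median of 2.96% over all labels. A single untemplated T after the full mature sequence ended 12.4% of let-7i-5p reads (11.8% to 13.3%), 6.24% of let-7e-5p reads (5.67% to 6.61%) and 2.71% of miR-98-5p reads (2.39% to 3.07%). Such a T can be seen only where the hairpin continues with another base. The hairpins of let-7i, let-7e and miR-98, where it does, are set beside those of let-7g and let-7b, where it does not, and the 4 bases after the mature end are in capitals.
Mirlet7i: ugagguaguaguuugugcuguuGGUC
Mirlet7e: ugagguaggagguuguauaguuGAGG
Mir98: ugagguaguaaguuguauuguuGUGG
Mirlet7g: ugagguaguaguuuguacaguuUGAG
Mirlet7b: ugagguaguagguugugugguuUCAG
After the mature end, G follows in let-7i, let-7e, miR-98 and let-7f-1, and U in let-7a-1, a-2, b, c-1, c-2, d, f-2 and g. In those with U, an added and a templated T cannot be told apart, so their T tails are a lower limit. In let-7b-5p the mature read with 1 more T, counted here as templated, made up 14.7% of the reads. An added A can be told apart in all 9, and let-7i-5p led there too.

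The 4 most abundant reads of let-7i-5p show these ends as they were sequenced, with the seed in capitals.
let-7i-5p, mature length: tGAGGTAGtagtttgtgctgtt
let-7i-5p, 1 base short: tGAGGTAGtagtttgtgctgt
let-7i-5p, with A: tGAGGTAGtagtttgtgctgtta
let-7i-5p, with T: tGAGGTAGtagtttgtgctgttt
They made up 43.6%, 16.7%, 15.9% and 12.4% of its reads, in this order. The read with A stood at a 2M mean of 1120 ± 87.8 RPM and an 18M mean of 1209 ± 246 RPM (SD, n = 3 each), and its ages overlapped. In let-7g-5p, which differs from let-7i-5p at 2 bases, the mature-length read made up 64.4% and the read with A 5.44%.

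No member's tail share was called between the ages (0 of 9 by limma with an adjusted or an unadjusted p under 0.05), whereas 0.439% and 14.9% of the 228 labels tested were. The largest difference was that of let-7i-5p, 1.79 percentage points higher at 18M (SE 1.24, 95% interval −1.20 to 4.78, limma adjusted p = 0.486). Its ages overlapped, as did those of the other 8 members, while 21.5% of the labels did not overlap. Taken alone, the single A of let-7i-5p was 15.9%, 15.7% and 16.1% at 2M and 17.5%, 16.1% and 19.3% at 18M. These did not overlap, by a margin far smaller than the spread at 18M (limma adjusted p = 0.568).

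**Figure D3:**
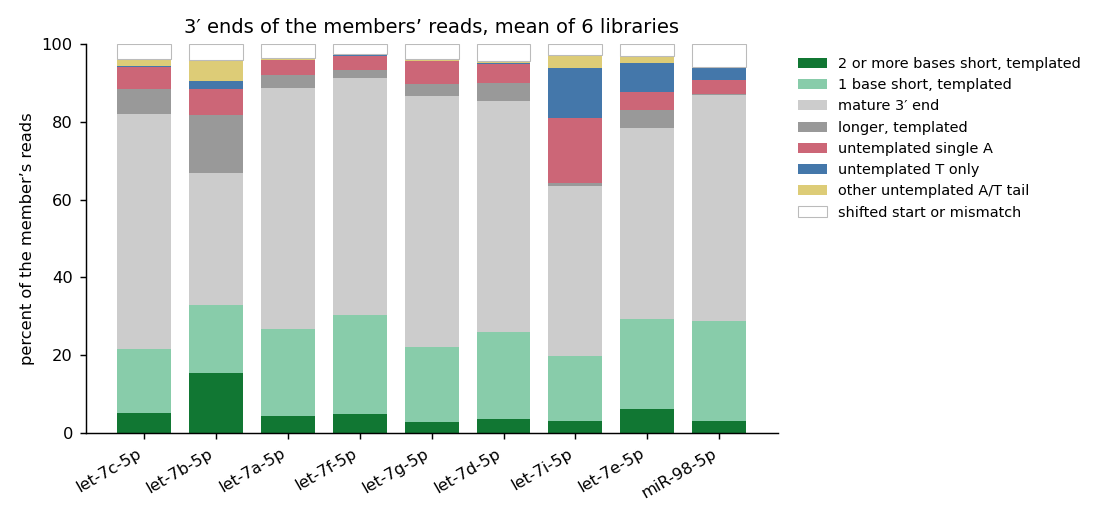
Percent of each member's reads by 3′ end, as the mean of 6 libraries, in members ordered by level. let-7i-5p stands out through untemplated A and T (32.9% of reads tailed in all). let-7b-5p stands out through reads 2 or more bases short and longer reads that match the hairpin, where an added T would look templated.

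Mean read lengths were close to the mature length in all members and ranged from 21.64 nt in let-7f-5p to 22.14 nt in let-7i-5p. The median over 276 labels was 21.8 nt. Reads of 22 nt made up 61.5% to 66.0% of the reads of let-7a, c, d, f and g and of miR-98, but 50.8% in let-7e-5p, 45.1% in let-7i-5p and 36.4% in let-7b-5p. let-7b-5p was the most uneven at the 3′ end. Of its reads, 17.2% were 20 nt or shorter, 22.3% were 23 nt and 34.0% had the mature end itself. Reads that matched the hairpin beyond the mature end made up 14.7%, and there an added T cannot be told apart from the templated U. At the 5′ end the members were uniform: 0.59% (miR-98-5p) to 1.94% (let-7d-5p) of their reads started at another base of the hairpin, against a median of 2.64% over 228 labels. Reads with a base before the start that the hairpin lacks were not counted here. Among reads that matched the hairpin, let-7d-5p and let-7g-5p had the most that started 1 base earlier, 0.74% and 0.83%. The hairpin holds A before let-7d and C before let-7g.

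No member's mean length was called between the ages (0 of 9 by limma with an adjusted or an unadjusted p under 0.05; of 276 labels 0.725% and 14.9% were). let-7g-5p had the only lengths that did not overlap, 21.86, 21.87 and 21.85 nt at 2M and 21.84, 21.84 and 21.81 nt at 18M (limma adjusted p = 0.565), while 18.5% of labels did not overlap.

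Single read sequences gave a finer view. The most abundant sequence of every member was its mature sequence, which made up 33.9% (let-7b-5p) to 64.4% (let-7g-5p) of the member's reads. Ranked by the difference in mean RPM, the reads that gained most at 18M were the mature reads of let-7b-5p, from 5763 ± 215 RPM to 6403 ± 1045 RPM, and of let-7c-5p, from 15652 ± 1684 RPM to 16264 ± 2789 RPM (SD, n = 3 each). The next was the let-7b-5p read with 1 more T, which may be templated or added, from 2353 ± 297 RPM to 2930 ± 523 RPM. The largest losses were those of let-7i-5p, with its mature read at 3262 ± 314 RPM and 3111 ± 188 RPM and the read 1 base short at 1282 ± 97.1 RPM and 1153 ± 175 RPM, and of the mature miR-98-5p read, at 370 ± 58.7 RPM and 313 ± 16.6 RPM. All 6 overlapped between the ages, so none of these changes exceeded the spread between libraries. Of the members' 3860 sequences, 206 had a mean of at least 10 RPM and were tested, and these held 97.8% of the members' reads. None was called by limma, where 0.366% of the 3281 sequences tested were, and none by edgeR. DESeq2 called 4 of the 206 (1.94%), fewer than its share of all 3268 sequences with an adjusted p (4.53%). With an unadjusted p under 0.05, 22 were found (10.7% of 206, against 13.0% of all sequences). All 22 were higher at 18M, where 8.41% of all sequences tested were higher at that p. Of the 22, 20 had a templated part of 20 bases or less and 2 a part of 21 bases, so each stopped before the mature 3′ end. Among all 206 tested, 51 had a templated part of 20 bases or less, and the share in other miRNAs at that p was not compared. By read length, 13 of the 22 were 20 nt or less. The 22 came from 7 members, 8 of them from let-7b-5p and 6 from let-7a-5p. The read lengths were looked at because of these short templated parts, after the values had been seen.

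Family reads of 20 nt or less did not overlap between the ages and were higher at 18M. They summed to 6899, 7102 and 6585 RPM at 2M and 8103, 8445 and 8553 RPM at 18M, a mean of 6862 ± 260.4 RPM against 8367 ± 234.9 RPM (SD, n = 3 each). The lowest 18M library was above the highest 2M library. As a share of family reads they were 6.44%, 6.22% and 6.81% at 2M and 8.02%, 7.04% and 7.29% at 18M, again without overlap. Within single members this share did not overlap in let-7a-5p and let-7f-5p, and it overlapped in all others. How many other labels do not overlap in this share was not compared. The family's make-up also enters its share, and that part was not tested. In all other miRNAs together, reads of 20 nt or less were 11.5%, 13.0% and 12.7% at 2M and 12.2%, 11.7% and 11.1% at 18M, which overlapped and had the lower mean at 18M. This pool is weighted by level, so abundant miRNAs count most in it, and it does not describe single miRNAs. Label by label, a related measure, the share of trimmed reads given below, had the higher mean at 18M in 65.4% of 228 labels. The difference between the family and the other miRNAs was not tested. The sums over the members carry no test, since the members and this length were chosen with the values known.

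Of the 38 family sequences of 20 nt or less that were tested, 36 had a positive log2 fold change, with a median of 0.34. An unadjusted p under 0.05 with the higher level at 18M was found for 13 of the 38 (34.2%). Over all 574 tested sequences of this length, the 38 included, the share was 11.5%. This length was chosen because the family's reads at that p were short, so a high count follows from the choice and is no test. The count was not stable: it was 6 to 9 of 38 when a library was left out (6 without 2M replicate 1), 6 with the replicate block, 9 with edgeR or with median-of-ratios scaling, and 12 with DESeq2. The 536 other sequences of this length had a median of 0.00, and at that p 53 of them were higher and 33 lower at 18M. Among family sequences of 21 nt or more the median was 0.07, and 9 of 168 (5.36%) were higher at that p, against 7.76% of all sequences of these lengths. The median over the 38 stayed between 0.31 and 0.36 when each library was left out in turn, and 35 or 36 of them stayed positive. These sequences share their libraries and in part their precursors, so they are not independent of each other. The RNA had been size-selected on a gel, and most marker sums, those of microglia and immune cells among them, had lower means at 18M. The part of either in this difference was not tested.

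By member, all short sequences tested were positive in let-7a (5 of 5), b (8 of 8), c (6 of 6), d (3 of 3), e (4 of 4), g (3 of 3) and i (3 of 3), with 4 of 5 in let-7f-5p. The single one of miR-98-5p was negative, at −0.14. The 4 short reads called by DESeq2 are shown as examples of such ends, although calls by this tool were no more frequent among the family's reads than among all reads.
let-7b-5p, 18 templated bases and 2 A: tGAGGTAGtaggttgtgtaa
let-7a-5p, 19 templated bases: tGAGGTAGtaggttgtata
let-7a-5p, 18 templated bases: tGAGGTAGtaggttgtat
let-7a-5p, 19 templated bases and A: tGAGGTAGtaggttgtataa
The 19-base read of let-7a-5p was at 38.1, 37.3 and 40.2 RPM at 2M and 56.7, 58.0 and 53.6 RPM at 18M. The groups did not overlap, which is no test, since the read was chosen by its DESeq2 call. How many of all sequences do not overlap was not compared. Its log2 fold change was 0.53 (SE 0.13), with a limma adjusted p of 0.175 and a DESeq2 adjusted p of 0.0205. The 20-base read of let-7b-5p that ends in 2 untemplated A was at 13.1, 10.6 and 13.1 RPM at 2M and 18.1, 20.4 and 20.5 RPM at 18M, also without overlap (limma adjusted p = 0.175, DESeq2 adjusted p = 0.0174). The 18-base read carries the label let-7a-5p but is also the start of let-7c-5p, and with an added A it would equal the 19-base read. Among the short reads the most abundant was tGAGGTAGtaggttgtatag of let-7a-5p, a mature read without its last 2 bases, at 625, 626 and 538 RPM at 2M and 756, 744 and 830 RPM at 18M. Its ages did not overlap, with a log2 fold change of 0.38 (SE 0.15, limma adjusted p = 0.337).

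The share of each member's reads whose templated part stopped at least 2 bases before the mature end was compared in the same way, as an addition made after seeing the data. Its mean was higher at 18M in all 9 members, where 65.4% of the 228 labels had the higher mean at 18M, with a median difference over all labels of 0.26 percentage points. In let-7a-5p it was 4.60%, 4.20% and 4.73% at 2M and 5.98%, 5.30% and 5.74% at 18M. In let-7f-5p it was 4.74%, 4.55% and 4.49% at 2M and 6.80%, 5.05% and 5.88% at 18M, and in let-7c-5p 6.08%, 5.76% and 6.21% at 2M and 7.18%, 6.33% and 6.52% at 18M. Among the 9 members these 3 did not overlap, with the higher values at 18M, as in 21.5% of labels. None of the 9 was called by limma with adjustment, and none of the 228 labels was (0.0%). At an unadjusted p under 0.05 let-7a-5p was the 1 member of 9, against 18.4% of labels, with a difference of 1.16 percentage points (SE 0.37, limma adjusted p = 0.223). let-7b-5p had the largest such share at both ages, 16.7% to 19.8%.

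**Figure D4:**
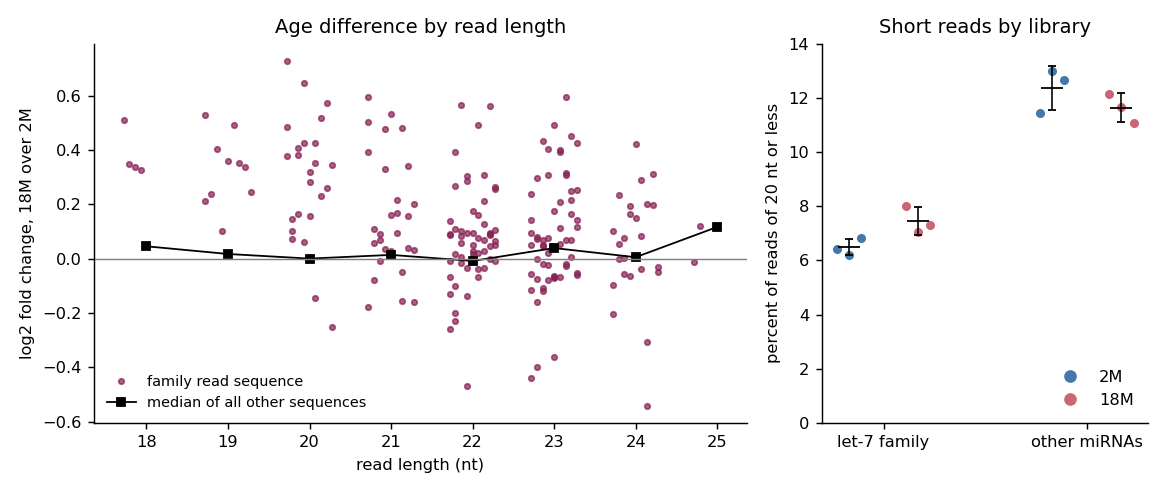
Left, log2 fold change of the 206 family read sequences by read length in nt (points, spread sideways for sight), with the median of all other sequences of the same length as black squares. Right, percent of reads of 20 nt or less in each library, for the family and for all other miRNAs, with mean and SD. Of the 38 family sequences of 20 nt or less, 36 lie above 0. The family's share of short reads does not overlap between the ages, although by member this holds only for let-7a-5p and let-7f-5p. That of the other miRNAs together, a pool weighted by level, overlaps.

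The hairpins also give an opposite strand, the 3p arm, which is usually discarded when the 5p arm enters Argonaute. let-7d kept it most: 3p reads were 16.1%, 13.1% and 18.3% of its 5p and 3p reads together at 2M and 17.8%, 17.8% and 17.5% at 18M. let-7i was next with 10.2%, 10.7% and 10.9% at 2M and 15.6%, 2.96% and 13.3% at 18M, and miR-98 had 5.81% to 6.38%. In let-7a with let-7c, let-7b, let-7e, let-7f and let-7g the 3p share was 0.351% to 1.41%. The low value of let-7i came from 18M replicate 2, where let-7i-3p was at 206 RPM, against 816 to 906 RPM at 2M and 1248 and 1247 RPM in the other 18M libraries. In the same library let-7g-3p (83.4 RPM, against 115 to 155 RPM elsewhere) and miR-99a-5p (3170 RPM, against 11323 to 16289 RPM elsewhere) were also at their lowest. The RPM levels of let-7i-5p and let-7g-5p there lay within the range of the other libraries. As shares of the family, however, both were lowest in this library, at 5.63% and 8.28%.

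Of the 12 labels of the opposite strands, 10 had at least 10 RPM and were tested, and none was called by limma (0 of 10, against 4.85% of all labels). Before adjustment, let-7f-2-3p, let-7a-1-3p and let-7c-2-3p (3 of 10) had p under 0.05, against 17.9% of all labels, and the last pair share the same reads. Their log2 fold changes ran from −0.35 (let-7i-3p, with its low library) to 0.63 (let-7f-2-3p, whose ages overlapped), with a median of 0.04. let-7d-3p was at 1508, 1311 and 1482 RPM at 2M and 1573, 1941 and 1815 RPM at 18M, without overlap (log2 fold change 0.31, SE 0.13, limma adjusted p = 0.302). Of the 10 tested labels, 3 did not overlap between the ages (let-7d-3p, let-7a-1-3p and let-7c-2-3p), against 24.9% of all labels tested. let-7c-1-3p, too low to be tested, did not overlap either, at 4.29, 5.06 and 4.81 RPM at 2M and 3.79, 3.67 and 4.11 RPM at 18M, where it was lower. let-7a-1-3p and let-7c-2-3p were at 236, 213 and 262 RPM at 2M and 279, 334 and 297 RPM at 18M (log2 fold change 0.35, SE 0.13, limma adjusted p = 0.225).

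**Figure D5:**
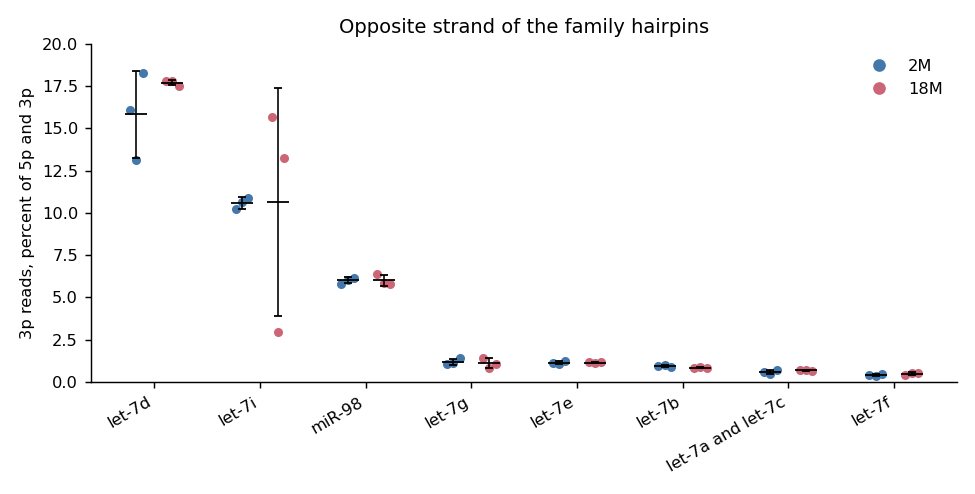
Reads of the 3p arm as a percent of 5p and 3p reads, by hairpin and library, with the mean and SD of each age. let-7d (13.1% to 18.3%), let-7i and miR-98 lie above the others, and 18M replicate 2 is the low point of let-7i at 2.96%.

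Several let-7 hairpins lie beside a miR-99/100 or a miR-125 hairpin: Mir99a is 656 bases from Mirlet7c-1, Mir125a is 367 bases from Mirlet7e, and Mir100 is 5211 bases from Mirlet7a-2, each on the same strand. None of the 5 labels of these partners was called by limma (0 at an unadjusted p under 0.05). Their log2 fold changes had a median of −0.26, from −0.88 for miR-99a-5p to 0.23 for miR-99b-5p, and the ages of all 5 overlapped. The value of miR-99a-5p (SE 0.54) includes its low library, 18M replicate 2, at 3170 RPM. miR-125a-5p, from the hairpin next to Mirlet7e, was at 9424, 10858 and 10949 RPM at 2M and 9169, 10343 and 6848 RPM at 18M (log2 fold change −0.26, SE 0.18). miR-99b-5p, the 1 partner label that was higher at 18M, was at 1238, 922 and 1255 RPM at 2M and 1344, 1253 and 1381 RPM at 18M (log2 fold change 0.23, SE 0.16). The value of let-7e-5p was 0.06 (SE 0.13).

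Log2 levels over the 6 libraries were compared as a description. Those of let-7a-5p and let-7d-5p, from hairpins of the same cluster, followed each other closely (Pearson r = 0.99). So did let-7f-5p of that cluster, with let-7d-5p and with let-7a-5p (r = 0.93 each). Other pairs with neighbouring hairpins were lower, let-7b-5p with let-7c-5p at 0.79 and let-7f-5p with miR-98-5p at 0.59. The highest pair without neighbouring hairpins, let-7d-5p with let-7e-5p, reached 0.90 and was above these. The values therefore did not follow clustering throughout. The lowest value was that of let-7b-5p with miR-98-5p, −0.27. Among 267 other labels of at least 100 RPM, the level of miR-342-3p was most like the family total (r = 0.98), followed by let-7b-3p (0.88), miR-532-5p (0.88), miR-34a-5p (0.81) and miR-30e-3p (0.74). All points share the same 6 libraries and their scaling.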

How the data were processed

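Small RNAs were pulled down with Ago1-4 from 3 brain samples (cortex and hippocampus) of each age and sequenced on an Illumina instrument. The authors trimmed reads (Trim Galore is named without a version), collapsed identical reads, removed rare ones and matched sequences to mouse small RNAs in their SPOROS pipeline. Deposited values are in RPM, scaled by the authors to each library's total, with a miRNA label and a seed viability for each sequence. The deposited viability is a score from siRNA transfections in 3 mouse cell lines, given by the authors as a percent.

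Here, rows were taken by their miRNA label, split at each bar, and RPM were added up per label and library. No member row had more than 1 label, whereas 308 rows of the table did. Whole reads were recovered, since 100% of each library's values were whole multiples of a single RPM step, to within 0.05 steps. The main tests used limma 3.58.1 under R 4.3.3 (eBayes, trend on) and log2(RPM + 1) values, a scale that understates the change of low features. They ran across all labels, 6mer seeds or read sequences whose mean reached 10 RPM. Tail shares, trimmed shares and mean lengths were tested for labels of at least 100 RPM, and p-values were adjusted by Benjamini-Hochberg with a threshold of 0.05. On the recovered reads of 474 labels, the edgeR 4.0.16 quasi-likelihood test called 14 and DESeq2 1.42.0 called 46, against 23 with limma. In simulated reads of these 474 labels, of which 200 were changed 4-fold, limma recovered 200 in the right direction and called 6 of the 274 unchanged ones. The family's largest level differences, 0.21 and −0.21 on the log2 scale, were far smaller than 4-fold. The simulation therefore does not show whether changes of that size would be called. Reads were compared with RefSeq mature sequences and hairpins (GRCm38.p6). Tables and figures were made in Python 3.11.15 (pandas 2.3.3, numpy 2.4.6, matplotlib 3.10.9).

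By rule, all members are named, with each member's most abundant read and the 3 member reads of largest gain and of largest loss in mean RPM. The trimmed share and the split by read length were added after seeing the data, and the reads called by DESeq2 and the most abundant short read were named after their values were seen. Members and lists (labels that share the seed, opposite strands, cluster partners and marker miRNAs) were chosen with earlier results of these data known. No per-sample column lay outside the 6 libraries.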

Additional observations from a re-analysis of the deposited data

How the results depend on the processing

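No member was called in any of the alternatives for levels, family shares, lengths, tails and trimmed reads, which were other pseudocounts (0.1 and 5 RPM) and filters, median-of-ratios scaling, edgeR, DESeq2, limma without the trend, stricter read sets, the replicate number as a block, and leaving out each library. The lowest adjusted p for a level was 0.304 and for a family share 0.121. Of the members' read sequences, 4 were called by DESeq2 and 0 otherwise. The difference of let-7i-5p changed sign to 0.0600 with median-of-ratios scaling, 0.0443 with edgeR and 0.0591 with DESeq2. That scaling moved the median of all labels from −0.07 to 0.02. Leaving out a library changed the sign of small log2 differences in level: let-7a ranged from −0.00263 to 0.155, let-7c from −0.0283 to 0.188, let-7d from −0.00674 to 0.188, let-7e from −0.0202 to 0.129, let-7f from −0.0611 to 0.0970 and let-7i from −0.130 to 0.0163. In the log2 family share, let-7a ranged from −0.0315 to 0.0131, let-7c from −0.0924 to 0.0290, let-7d from −0.0329 to 0.0475, let-7e from −0.0648 to 0.00536 and let-7g from −0.0453 to 0.18. Mean length ranged from −0.0343 to 0.0192 nt in let-7b and from −0.0204 to 0.00632 nt in let-7c. Tail shares ranged from −0.32 to 0.90 percentage points in let-7d, −0.0546 to 0.62 in let-7e, −0.18 to 0.38 in let-7f, −0.60 to 0.24 in let-7g and −0.51 to 0.27 in miR-98, and with only a single A counted, miR-98-5p gave 0.34. The cause was not tested.

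Over all labels, limma called 23, against 2 with a filter of 100 RPM, 14 with scaling by median of ratios or with edgeR, 46 with DESeq2, 15 without the trend or with single-label reads, 7 with reads of the mature start without mismatch, and 0 to 15 when a library was left out. Over all read sequences it called 12, against 148 with DESeq2, 20 at a mean of at least 1 RPM, and 0 at 100 RPM or without any 1 library. Same-numbered libraries of the 2 ages did not deviate together (correlations of −0.17, −0.22 and −0.10), so the numbers do not pair the samples. With the replicate block, 1 label, 0 seeds and 0 read sequences were called, and 0 of the 9 members.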

Other observations

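Single-base variants of the 22-base mature reads were listed because some of them carry no miRNA label. Substitutions are counted from 1 at the 5′ end, with the mature base first, and shares are relative to the mature-length read. Over 490 possible variants at positions 1 to 20 that belong to 1 member only, the median share was 0.033%, and it was 0.096% for A to G and 0.113% for T to C. The highest of them was A10G in let-7b-5p, at 0.680%, 0.609% and 0.618% at 2M and 0.782%, 0.777% and 0.709% at 18M. Its ages were not tested, since it was picked as the highest of the 490. A10G in let-7g-5p followed at 0.447% to 0.495%, and A10G in let-7c-5p at 0.177% to 0.247%. In the other 6 members A10G was at 0.056% to 0.120% on average. Reads with A10G carried no miRNA label in the deposited table.

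Reads with the seed GAGGUA and no miRNA label summed to 1654 to 2202 RPM, or 1.72% to 1.85% of all reads with that seed, over 2308 sequences. A second annotation of the table named let-7 or miR-98 for 85.8% to 88.2% of them.

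A C before the mature start, which the hairpin holds there, was found in 0.819% of let-7g-5p, 0.391% of let-7e-5p and 0.286% of let-7i-5p reads. A C before the start was also found where the hairpins hold other bases, in 0.377% of let-7a-5p reads, 0.376% of let-7b-5p, 0.365% of let-7c-5p, 0.293% of let-7d-5p, 0.279% of let-7f-5p and 0.200% of miR-98-5p reads. In these members, other than let-7d-5p with its templated A, C was the most frequent base there.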
